A study of Mus musculus with 6 samples.

Results

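Notch signalling passes between touching cells, and its genes were compared here between whole mouse testes of 2 genotypes. The set held 10 genes of the 14998 in the deposited table, chosen by name: the 4 receptor genes Notch1 to Notch4, the ligand genes Jag1 and Jag2, and the target genes Hes1, Hey1, Hey2 and Heyl. A ligand of the Delta or Jagged family on a neighbouring cell exposes the receptor to the protease ADAM10 and then to gamma-secretase, and the freed intracellular part enters the nucleus, where it binds RBPJ and Mastermind proteins and switches on genes such as those of the HES and HEY families, which are transcriptional repressors. In the testis the pathway is known for keeping progenitors of Leydig cells undifferentiated and for the ligand JAG1 of germ cells acting on Sertoli cells, and in vessels NOTCH1 and NOTCH4 mark endothelium and NOTCH3 the mural cells around it.

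Control libraries (3) came from testes of the genotype Lats1flox/flox;Lats2flox/flox, in which loxP sites flank a stretch of every Lats1 and Lats2 allele, and libraries labelled knockout (3) from testes that carry these alleles together with Amh-cre, which drives Cre recombinase in Sertoli cells, the somatic support cells of the testis cords. The kinases LATS1 and LATS2 belong to the Hippo pathway and restrain YAP and TAZ, and the deletion in this model is limited to cells in which the Amh promoter drives Cre. The sample labels name testes and the series' design text adrenal glands, and the labels give no age. They do not say whether the libraries of a group came from different animals, so a p-value here covers spread among libraries that may be technical. Levels are in FPKM as the authors computed them, that is, fragments divided by gene length in kilobases and by library size.

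Facts of the whole table set the frame. Lats1 had 15.3 to 16.3 FPKM in control and 12.4 to 12.9 FPKM in knockout libraries (log2 fold change -0.29, limma adjusted p = 0.000474). Lats2 had 14.5 to 17.0 FPKM in control and 17.8 to 18.2 FPKM in libraries labelled knockout (log2 fold change 0.20, limma adjusted p = 0.0126). The direction of Lats2, unlike that of Lats1, goes against the label. The floxed exons are not named in the labels, so neither level checks the deletion, and every direction below is drawn from the labels. Of 13778 genes tested, 68.9% were called at the 0.05 threshold, 35.2% as higher and 33.7% as lower in knockout libraries, and 74.3% had no overlap between the groups. The totals that the FPKM imply were 9490735 to 13620087 reads a library. In control libraries the summed level of 16 Sertoli cell markers was 537 to 603 FPKM and that of 10 Leydig cell markers 924 to 1014 FPKM, so that defining markers of both testis cell types were present.

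All 10 genes passed the filter of a mean of at least 1 FPKM. In knockout libraries 6 were higher (Notch1, Notch4, Jag1, Hes1, Hey2 and Heyl), 2 were lower (Notch2 and Jag2), and Notch3 and Hey1 were not called. The median log2 fold change of the 10 was 0.23 on the log2(FPKM + 1) scale (where low genes appear to change less than their FPKM do), against 0.01 over all genes tested. The share called, 8 of 10, stands against the 68.9% of all genes, and the groups did not overlap in 7 of 10 genes against 74.3% of all genes. Behind these values lay 113 to 3042 reads per gene and library. The authors' deposited table gave an FDR under 0.05 for 6 of the 10, leaving out Jag2 (0.0527) and Hes1 (0.0509) beside Hey1 (0.3) and Notch3 (0.866). Receptor genes and ligand genes were each called in both directions, as the plot of FPKM by library shows.

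**Figure D1:**
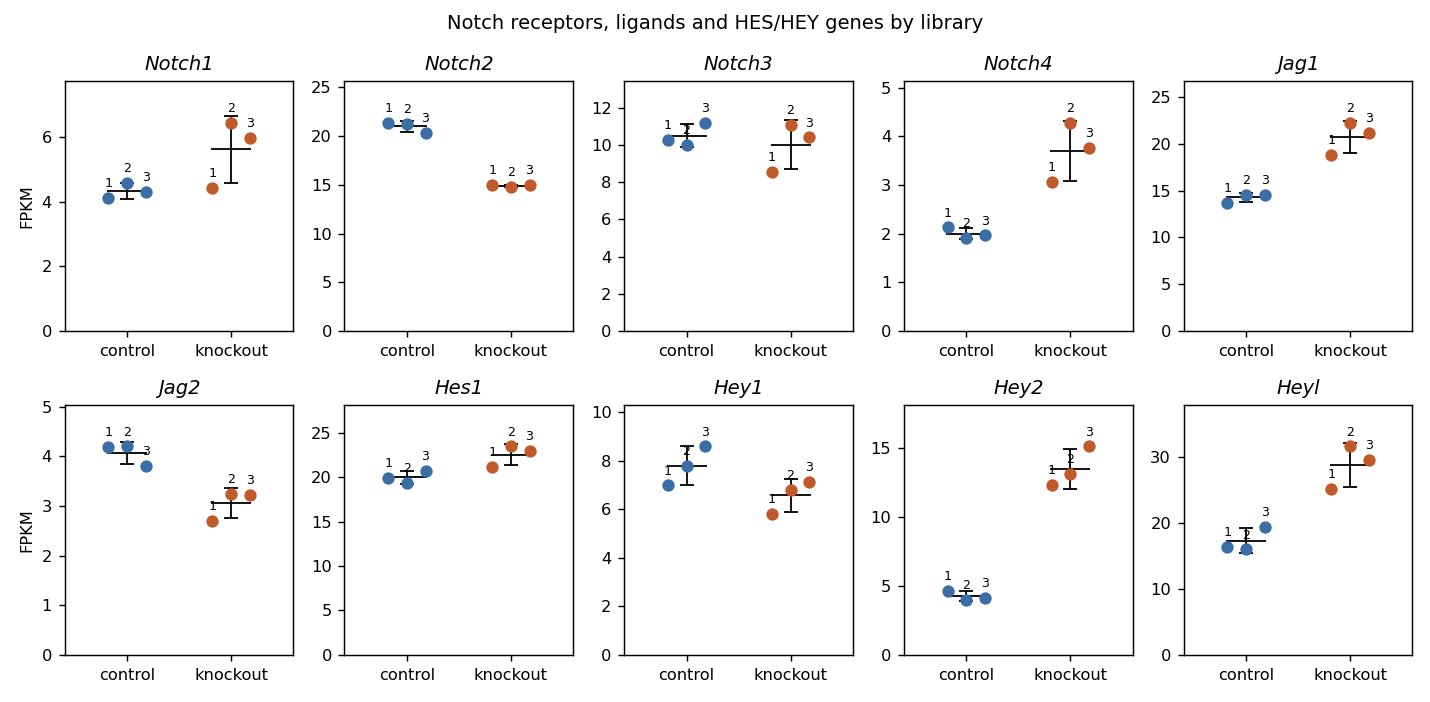
FPKM of each of the 10 genes (vertical axes from 0) in the 3 control and 3 knockout libraries, numbered by replicate, with the group mean and SD as a bar. Hey2 is above 12 FPKM in every knockout library and below 5 FPKM in every control library, and the Notch2 groups are apart in the other direction.

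Among the receptors, Notch2 (chromosome 3, 98013538 to 98150367, GRCm38) was the most abundant and fell. It had 21.4, 21.3 and 20.3 FPKM in control libraries 1 to 3 and 15.0, 14.8 and 15.0 FPKM in knockout libraries 1 to 3. The knockout libraries were nearly equal and all lay below the lowest control. The level fell 1.41-fold (log2 fold change -0.47, SE 0.04, limma adjusted p = 1.16e-05).

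Notch4 (chromosome 17, 34564268 to 34588503), the receptor gene best known from endothelium, was the least abundant receptor and rose. It had 2.13, 1.91 and 1.97 FPKM in control libraries and 3.06, 4.28 and 3.76 FPKM in knockout libraries. The groups did not overlap, although knockout replicate 1 lay well below the other two. The rise was 1.85-fold (log2 fold change 0.64, SE 0.11, limma adjusted p = 0.000733).

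Notch1 (chromosome 2, 26457903 to 26516663), the receptor gene of endothelium and of many progenitor cells, had 4.12, 4.59 and 4.30 FPKM in control libraries and 4.44, 6.44 and 5.96 FPKM in knockout libraries. Knockout replicate 1 lay inside the control range and the other two above it. Notch1 was called higher (log2 fold change 0.30, SE 0.12, limma adjusted p = 0.0459). The call was lost without control replicate 1, 2 or 3 (adjusted p = 0.124, 0.0648 and 0.0773) and without knockout replicate 2 or 3 (0.153 and 0.135), and was 0.00257 without knockout replicate 1. Of the Notch1 exon bases 10.4% are shared with 0610009E02Rik and Gm13568 on the opposite strand, and the strand setting of the counting is not given in the sources used here, so reads of these genes cannot be told apart. Those partners were low, at 0.935 and 0.484 FPKM in control libraries against 0.704 and 0.591 FPKM in knockout libraries. Notch2 shares 5.02% of its exon bases with Gm42820 on the same strand and Notch3 6.03% with Gm17276 on the opposite strand, partners that were not analysed here.

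Notch3 (chromosome 17, 32120820 to 32166880), the receptor gene of mural cells and of Leydig progenitors, had 10.3, 10.004 and 11.2 FPKM in control libraries against 8.58, 11.1 and 10.4 FPKM in knockout libraries. The ranges overlapped, with the lowest value again in knockout replicate 1. The log2 fold change of -0.07 had a 95% interval from -0.27 to 0.14 (limma adjusted p = 0.527).

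The summed level of the receptors was 37.8 to 37.9 FPKM in control libraries against 31.1, 36.6 and 35.1 FPKM in knockout libraries, while its make-up shifted. Notch2 supplied 55.5 ± 1.48% of the summed receptor FPKM in control and 43.8 ± 4.05% in knockout libraries (SD, n = 3 each). Notch4 went from 5.30 ± 0.290% to 10.8 ± 0.922% and Notch1 from 11.5 ± 0.651% to 16.3 ± 1.76%. Notch3 held 27.8 ± 1.66% and 29.2 ± 1.41%. In every library the order by level was Notch2, Notch3, Notch1 and Notch4, as the stacked bars of class make-up show.

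The Jagged ligand genes moved in opposite directions. Jag1 (chromosome 2, 137081456 to 137116644) had 13.7, 14.5 and 14.6 FPKM in control libraries and 18.8, 22.2 and 21.1 FPKM in knockout libraries. Every knockout library lay above every control library, and the rise was 1.45-fold (log2 fold change 0.51, SE 0.06, limma adjusted p = 0.000109). Jag2 (chromosome 12, 112908590 to 112929495), which encodes the other Jagged ligand, had 4.18, 4.20 and 3.81 FPKM in control libraries against 2.70, 3.24 and 3.22 FPKM in knockout libraries. These groups did not overlap either, and the level fell 1.33-fold (log2 fold change -0.32, SE 0.08, limma adjusted p = 0.00817).

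Within a library, Jag1 stood 3.28, 3.46 and 3.82 times above Jag2 in FPKM in control libraries 1 to 3. The ratio was 6.97, 6.87 and 6.56 in knockout libraries 1 to 3. Knockout replicate 1, which was the lowest knockout library for both genes, had the highest ratio.

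**Figure D2:**
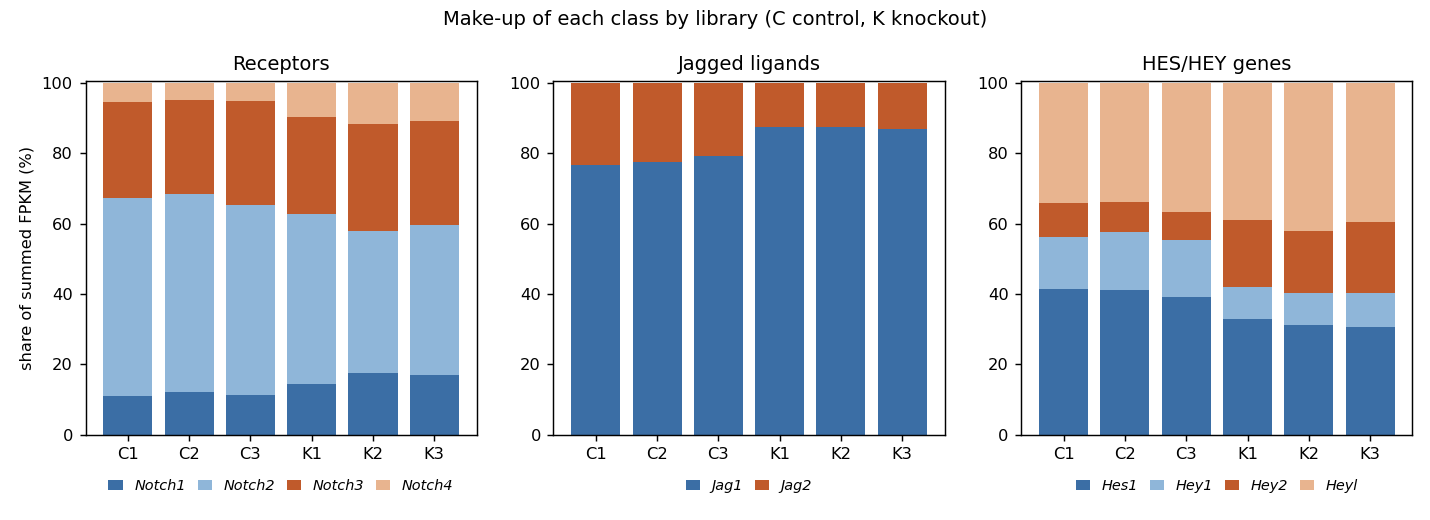
Share of the summed FPKM of each class (percent, bars from 0) that each gene supplied in control libraries (C1 to C3) and knockout libraries (K1 to K3). Notch2 takes a smaller part of the receptor level in knockout libraries, Jag1 a larger part of the Jagged level, and Hey2 a larger part of the HES/HEY level.

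Among the target genes, Hey2 (chromosome 10, 30832359 to 30842801), a HEY repressor known from arteries and the heart, rose furthest of the 10 genes. It had 4.67, 4.002 and 4.15 FPKM in control libraries and 12.3, 13.1 and 15.1 FPKM in knockout libraries. The lowest knockout library lay far above the highest control library. The rise was 3.16-fold (log2 fold change 1.46, SE 0.08, limma adjusted p = 1.19e-06). By group mean, Hey2 was among the 3 lowest of the 10 genes in control libraries and the fifth highest in knockout libraries, where its range overlapped that of Notch2.

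Heyl (chromosome 4, 123233556 to 123249875), a HEY family gene known from smooth muscle and mural cells, had 16.4, 16.0 and 19.4 FPKM in control libraries against 25.1, 31.5 and 29.6 FPKM in knockout libraries. Control replicate 3 was the highest control and knockout replicate 1 the lowest knockout, and the groups stayed apart. The rise was 1.67-fold (log2 fold change 0.70, SE 0.09, limma adjusted p = 0.000185), which made Heyl the most abundant of the 10 genes in knockout libraries.

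Hes1 (chromosome 16, 30064384 to 30067796), the HES repressor gene that many tissues express, had 19.9, 19.3 and 20.7 FPKM in control libraries against 21.2, 23.5 and 23.0 FPKM in knockout libraries. The groups did not overlap, by a small gap. The log2 fold change of 0.17 (SE 0.05, limma adjusted p = 0.0161) missed the threshold when control replicate 2 was left out (adjusted p = 0.0511) or knockout replicate 2 or 3 (0.0649 and 0.0597).

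Hey1 (chromosome 3, 8663362 to 8667039), a further HEY repressor gene, was not called. It had 6.98, 7.80 and 8.59 FPKM in control libraries against 5.82, 6.78 and 7.13 FPKM in knockout libraries, with overlapping ranges. The log2 fold change was -0.21 (95% interval -0.42 to -0.01, limma adjusted p = 0.0621). The adjusted p was 0.045 with limma-voom on recovered reads, 0.0313 without control replicate 1 and 0.0487 without knockout replicate 3.

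The balance of these HEY genes was also read within each library. Hey2 stood at 0.669, 0.513 and 0.483 times the FPKM of Hey1 in control libraries 1 to 3 and at 2.12, 1.93 and 2.12 times in knockout libraries 1 to 3. Hey2 was below Hey1 in every control library and above it in every knockout library. The HES/HEY genes together summed to 47.9, 47.1 and 52.9 FPKM in control libraries against 64.4, 74.9 and 74.8 FPKM in knockout libraries. Hes1 supplied 40.6 ± 1.23% of that level in control and 31.7 ± 1.11% in knockout libraries, and Hey1 15.8 ± 1.07% and 9.21 ± 0.280% (SD, n = 3 each).

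**Figure D3:**
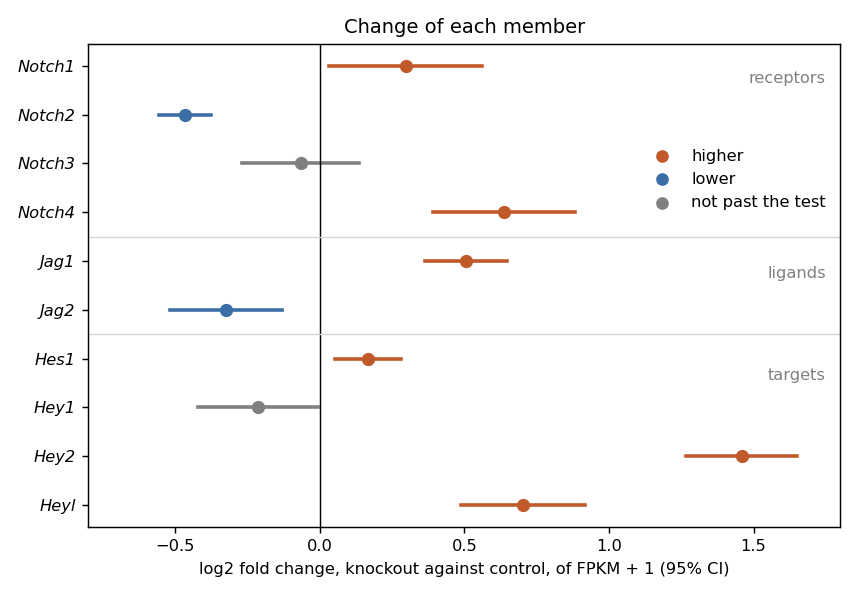
Log2 fold change of knockout against control libraries on the FPKM + 1 scale (horizontal axis) with its 95% interval from limma for each of the 10 genes, grouped as receptors, ligands and targets and coloured by the call at an adjusted p of 0.05. Hey2 lies farthest to the right at 1.46 and Notch2 farthest to the left at -0.47, and the Hey1 interval ends just below 0 although its adjusted p did not pass.

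Promoter windows are shown for the 3 genes that were called higher and held the core letters of a TEAD site, the DNA partner of YAP and TAZ, in the 250 bases before the start that RefSeq gives. That start differs from the end of the gene range in the deposited table: the Notch1 window lies inside the range printed above for Notch1, and the Hey2 and Notch4 windows overlap the outer end of theirs. Of the 10 genes, 7 matched an entry in the RefSeq promoter table on GRCm38.p6, and Hes1, Hey1 and Heyl did not. The searches, on both strands, were for GGAATG (TEAD core), TGGGAA (RBPJ core), CACGTG (E-box) and CACNAG (N-box), the last pair being letters that HES and HEY proteins bind. Capitals mark TEAD and RBPJ core letters, each window reads 5′ to 3′ on the gene's strand, and positions count back from -1, the last base before the start.
Hey2, chr10:30842784-30843033, minus strand: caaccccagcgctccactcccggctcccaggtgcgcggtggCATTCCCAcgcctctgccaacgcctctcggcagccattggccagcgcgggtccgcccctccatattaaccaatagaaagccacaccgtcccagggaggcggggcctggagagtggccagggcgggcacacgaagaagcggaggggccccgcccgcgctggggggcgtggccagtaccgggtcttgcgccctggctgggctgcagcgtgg
Notch4, chr17:34564045-34564294, plus strand: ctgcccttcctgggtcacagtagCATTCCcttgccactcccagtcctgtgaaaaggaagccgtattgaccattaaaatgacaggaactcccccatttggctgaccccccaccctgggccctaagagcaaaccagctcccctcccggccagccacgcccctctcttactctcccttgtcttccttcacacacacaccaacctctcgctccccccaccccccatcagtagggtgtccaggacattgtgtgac
Notch1, chr2:26503823-26504072, minus strand: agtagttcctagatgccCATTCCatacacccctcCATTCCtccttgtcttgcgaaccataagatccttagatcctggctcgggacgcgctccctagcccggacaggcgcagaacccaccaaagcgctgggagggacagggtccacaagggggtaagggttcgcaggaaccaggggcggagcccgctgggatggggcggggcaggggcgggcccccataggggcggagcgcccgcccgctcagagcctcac

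In the Hey2 window the TEAD core letters lie at -209 to -204 and the RBPJ core letters at -207 to -202, so that 4 bases belong to both. The Notch4 window holds TEAD core letters at -227 to -222, and the Notch1 window holds them at -233 to -228 and again at -216 to -211. TEAD core letters occurred in 3 of the 7 windows and in 12.6% of 32851 windows of the same length in the table, and RBPJ core letters in 1 of 7 and in 21.6%. The N-box letters were in the Notch1, Notch2 and Notch3 windows (36.7% of all windows), and the E-box letters in none of the 7 (6.02% of all). The Jag1 window, of a gene that rose, and the Jag2 window, of a gene that fell, held none of these letters. A match is a description of the letters and does not show binding.

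FPKM are per length, so the genes can be ordered by level. In control libraries the order ran from Notch2 (mean 21.0 FPKM) through Hes1 (20.0), Heyl (17.3), Jag1 (14.3), Notch3 (10.5), Hey1 (7.79), Notch1 (4.34), Hey2 (4.27) and Jag2 (4.07) to Notch4 (2.00). The ranges of Notch2 and Hes1, of Hes1 and Heyl, of Notch1 and Hey2 and of Hey2 and Jag2 overlapped. In knockout libraries the order was Heyl (28.7 FPKM), Hes1 (22.6), Jag1 (20.7), Notch2 (14.9), Hey2 (13.5), Notch3 (10.02), Hey1 (6.58), Notch1 (5.61), Notch4 (3.70) and Jag2 (3.05). There the ranges of Hes1 and Jag1, of Notch2 and Hey2, of Hey1 and Notch1 and of Notch4 and Jag2 overlapped. The value of 1 read matched the merged exon length of GENCODE M21 for 5 of the 10 genes, so for the others the length behind the level differs from that annotation.

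Knockout replicate 1 had the lowest value of the knockout group in 9 of the 10 genes, Notch2 being the exception, against 36.2% of all genes tested. The summed level of 14 endothelial markers in knockout libraries 1 to 3 was 163, 187 and 176 FPKM, and that of 13 mural and smooth muscle markers was 405, 472 and 426 FPKM. Both lists had their lowest knockout value in replicate 1 and their highest in replicate 2, as did Notch1, Notch3, Notch4, Jag1, Jag2, Hes1 and Heyl. The order was the same for 10 mesothelial markers (288, 318 and 310 FPKM), and 12 macrophage markers were also lowest in replicate 1 (391, 457 and 461 FPKM). The other lists went differently. Replicate 1 was the highest knockout library for Sertoli (301, 275 and 269 FPKM), Leydig (452, 407 and 395) and interstitial progenitor markers (463, 441 and 452). For the progenitor list that rank rested on Ly6a, a marker treated below. Without Ly6a the other 9 progenitor genes summed to 372, 355 and 373 FPKM, lowest in replicate 2 and nearly equal in replicates 1 and 3. Germ cell markers were lowest in replicate 2 (104, 63.4 and 108 FPKM). The part of these cells in the values was not tested.

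Markers of the cells that could carry these genes also differed between the groups. In bulk tissue, fewer cells of a type and less RNA per cell cannot be told apart. Of 14 endothelial markers 4 were higher, 1 lower and 9 did not pass (35.7% called, against 68.9% of all genes tested, median log2 fold change 0.12). Their summed level was 161 to 170 FPKM in control and 163 to 187 FPKM in knockout libraries. The junction gene Cdh5, the 1 lower marker, fell from 44.9 to 32.4 FPKM, and Pecam1, which encodes CD31, had 20.8 and 23.1 FPKM without passing. The 4 higher markers, named after their values were seen, were Kdr, Eng, Esam and Erg. Their log2 fold changes were 0.50, 0.44, 0.36 and 0.24. The log2 fold changes of the list ran from -0.46 to 0.50, and those of the 10 genes from -0.47 for Notch2 to 1.46 for Hey2. Notch1 had 0.30, Jag1 0.51 and Notch4 0.64. The part of endothelial cells in these levels was not tested.

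Of 13 mural and smooth muscle markers 8 were higher, 2 lower and 3 did not pass (76.9% called, against 68.9% of all genes tested, median 0.32). Their summed level was 269 to 290 FPKM in control and 405 to 472 FPKM in knockout libraries. The smooth muscle actin gene Acta2 rose from 76.3 to 95.4 FPKM and Tagln, which encodes transgelin, from 43.8 to 92.1 FPKM. Among them, chosen after their values were seen, the pericyte channel genes Abcc9 and Kcnj8 rose 2.85-fold and 2.56-fold. Myh11, the smooth muscle myosin gene, chosen in the same way, fell from 22.9 to 14.5 FPKM. The 3 markers that did not pass were Rgs5, Cspg4 and Actg2, with log2 fold changes of 0.149, -0.106 and 0.0068. The rise of the channel genes was thus not shared by every marker of the list. Heyl rose 1.67-fold in the same libraries and Notch3 did not pass, and the share of mural cells in these values was not tested.

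Markers of other cell types differed as well. The share called was 100% for macrophage, Sertoli and Leydig markers, 90.0% for mesothelial, 80.0% for interstitial progenitor and 77.8% for germ cell markers. Of all genes tested 68.9% were called. Macrophage markers were higher in 12 of 12 cases, from 50.5 to 60.5 FPKM summed in control to 391 to 461 FPKM in knockout libraries, with Lyz2 at 84.0 and C1qa at 78.6 FPKM in the latter. Mesothelial markers were higher in 8 of 10 cases and lower in 1 (summed 80.3 to 85.1 against 288 to 318 FPKM), with Msln at 98.2 and Krt18 at 69.7 FPKM in knockout libraries. Of 16 Sertoli cell markers 12 were lower and 4 higher (537 to 603 against 269 to 301 FPKM). Among those lower, Aard and Inha fell from 74.8 to 39.5 and from 79.7 to 34.3 FPKM. Those higher, named after their values were seen, were Sox9, Wt1, Cldn11 and Trf. They had log2 fold changes of 0.23, 0.41, 1.52 and 1.34, so the fall was not shared by every Sertoli marker of the list. Leydig cell markers were lower in 10 of 10 cases (924 to 1014 against 395 to 452 FPKM), and the steroid enzyme genes Cyp17a1 and Cyp11a1 fell from 180 to 81.0 and from 153 to 74.7 FPKM. Germ cell markers were lower in 7 of 9 tested cases (238 to 266 against 63.4 to 108 FPKM), among them Mael and Dazl, which fell from 76.3 to 15.1 and from 54.8 to 22.1 FPKM. Interstitial progenitor markers were lower in 7 of 10 and higher in 1 (493 to 533 against 441 to 463 FPKM), with Dcn falling from 119 to 76.0 FPKM and Col1a1 at 88.8 and 92.8 FPKM without passing. The 1 higher marker was Ly6a, which encodes the surface protein SCA-1 and is named after its values were seen, with a mean of 1.46 FPKM in control libraries against 85.1 FPKM in the others. Without Ly6a the other 9 genes summed to 491 to 532 FPKM in control libraries against 355 to 373 FPKM. The markers Hsd3b6, Nanos2 and Nanos3 were not analysed here. The part of these cells in the levels of the 10 genes was not tested.

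**Figure D4:**
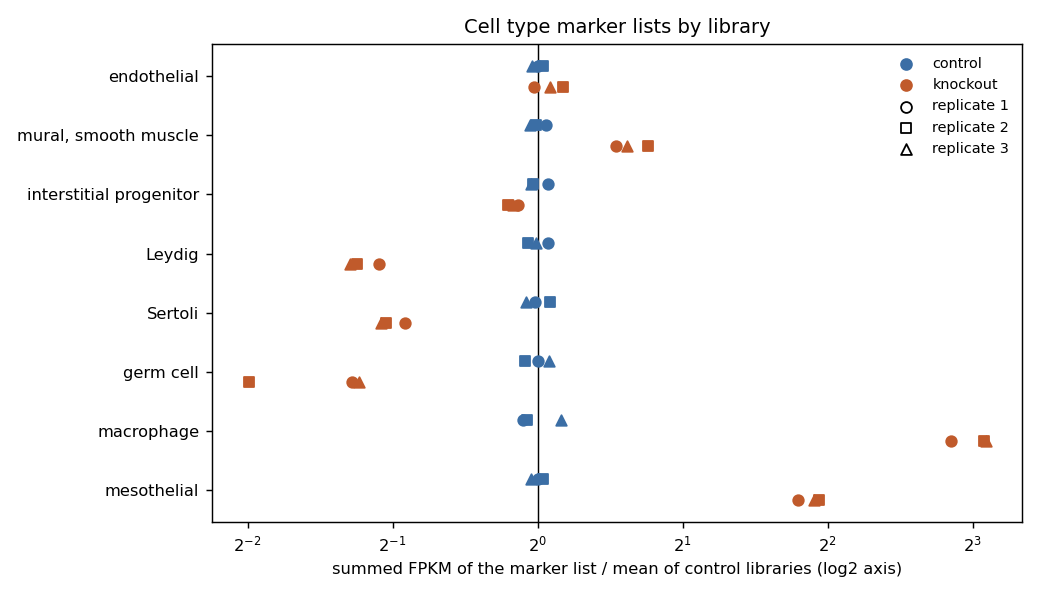
Summed FPKM of each cell type marker list in every library, divided by the mean of the control libraries (horizontal axis, log2 scale), with control in blue, knockout in orange and the marker shape giving the replicate. Endothelial sums stay near the control mean, mural sums are higher in every knockout library, and macrophage sums are the highest.

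The rest of the pathway was read from a list of 65 other genes, of which 58 were in the table and 57 passed the filter. Of these 29 were higher, 13 lower and 15 did not pass (73.7% called, against 68.9% of all genes), with a median log2 fold change of 0.14. The roles differed in their counts, as the plot of pathway genes by role shows. Of all genes tested 35.2% were called higher and 33.7% lower, the background for each count below. The share called was below 68.9% for glycosylation, nuclear activator and corepressor genes, and above it for the other roles. Each role holds few genes, and whether its count departs from that of all genes was not tested.

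Other ligand genes moved both ways. Dll4, the Delta ligand gene of arterial and tip endothelium, rose from 2.87, 2.65 and 3.05 FPKM in control to 3.43, 4.37 and 4.05 FPKM in knockout libraries (log2 fold change 0.36, limma adjusted p = 0.00816). Dll1, a Delta ligand gene, had 0.974, 1.10 and 1.19 FPKM in control libraries against 0.423, 0.536 and 0.586 FPKM in knockout libraries, and its mean lay below the filter. With no filter on low values it was called lower (log2 fold change -0.46, limma adjusted p = 0.00359). Dll3 was not analysed here.

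Ligand-like genes without the receptor-activating DSL domain were also called in both directions. Dlk2 had 0.299, 0.278 and 0.430 FPKM in control libraries against 8.26, 6.68 and 4.63 FPKM in knockout libraries, on 25 reads in all controls and 482 in all knockouts, a 19.4-fold rise (limma adjusted p = 3.04e-06). Dlk1, a related gene of fetal and Leydig-lineage cells, fell from 31.3 to 27.1 FPKM (adjusted p = 0.00461). Dner, a neuronal Notch ligand gene, fell from 2.01 to 0.496 FPKM (adjusted p = 0.000449).

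Genes of receptor cleavage were higher in 8 of 10 cases, and none was lower. Adam10, the protease gene of the ligand-dependent step, rose from 39.9 to 67.6 FPKM (log2 fold change 0.75, SE 0.04, limma adjusted p = 1.26e-06). Aph1b and Ncstn, which encode gamma-secretase subunits, rose 1.90-fold and 1.24-fold. The subunit genes Aph1c and Psenen, named after their values were seen, did not pass, at 1.46 and 7.82 FPKM in control libraries against 1.44 and 8.32 FPKM in knockout libraries. Adam10 and gamma-secretase cut many other membrane proteins and act in macrophages as well, and macrophage markers rose in the same libraries, with a median log2 fold change of 2.90. The part of macrophages in these levels was not tested.

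Genes of receptor glycosylation were higher in 3 of 5 cases and lower in none. Poglut1, the O-glucosyltransferase gene, rose 1.33-fold, and the Fringe genes Lfng and Mfng, whose products tune which ligands a receptor answers to, rose 1.42-fold and 1.32-fold. Among nuclear activators 4 of 7 were higher and none lower. Rbpj, the DNA-binding partner of the receptor, had 4.17, 4.14 and 4.40 FPKM in control libraries against 5.61, 5.48 and 5.58 FPKM in knockout libraries (log2 fold change 0.32, SE 0.06, limma adjusted p = 0.0016). The acetyltransferase gene Kat2b and the Mastermind gene Maml1 rose 1.59-fold and 1.24-fold.

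Corepressor genes split, with 3 of 11 higher, 3 lower and 5 not past. Tle2, a Groucho family gene, fell from 7.37 to 2.52 FPKM (limma adjusted p = 1.4e-06), whereas Ctbp2 and Tle3, which also encode corepressors, rose 1.45-fold and 1.28-fold. Genes of trafficking and turnover split as well, with 6 of 15 higher, 6 lower and 3 not past. Dtx1, a Deltex ubiquitin ligase gene and itself a known Notch target, had 8.29, 10.8 and 10.2 FPKM in control libraries. Its knockout libraries had 1.32, 0.815 and 1.34 FPKM, an 8.41-fold fall (log2 fold change -2.32, SE 0.13, adjusted p = 9.45e-07). Its relative Dtx4 fell from 27.3 to 20.1 FPKM, and Numbl, whose product is a relative of the Notch inhibitor NUMB, rose from 4.62 to 6.85 FPKM.

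Genes listed here as other targets were called in both directions, with 3 of 5 higher and 2 lower. The list holds genes that other pathways also regulate, so this count does not measure Notch activity. Myc and Ccnd1, growth genes that many other pathways regulate, rose 3.33-fold and 2.88-fold, and Hes6, a HES family gene that opposes HES1, rose from 6.44 to 12.0 FPKM. Nrarp, a feedback inhibitor gene of Notch and one of its direct targets, had 11.5, 11.4 and 13.2 FPKM in control libraries against 9.65, 10.9 and 10.6 FPKM in knockout libraries, without overlap (log2 fold change -0.19, SE 0.07, limma adjusted p = 0.0373). Hes5, a classical Notch target chosen here after its values were seen, had 1.62, 2.32 and 2.30 FPKM in control libraries against 0.238, 0.133 and 0.129 FPKM in knockout libraries. That was 102 reads in all controls against 8 in all knockouts, a ratio of read rates of 12.6 (95% interval 6.14 to 29.9, counting error only; limma adjusted p = 1.58e-05).

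**Figure D5:**
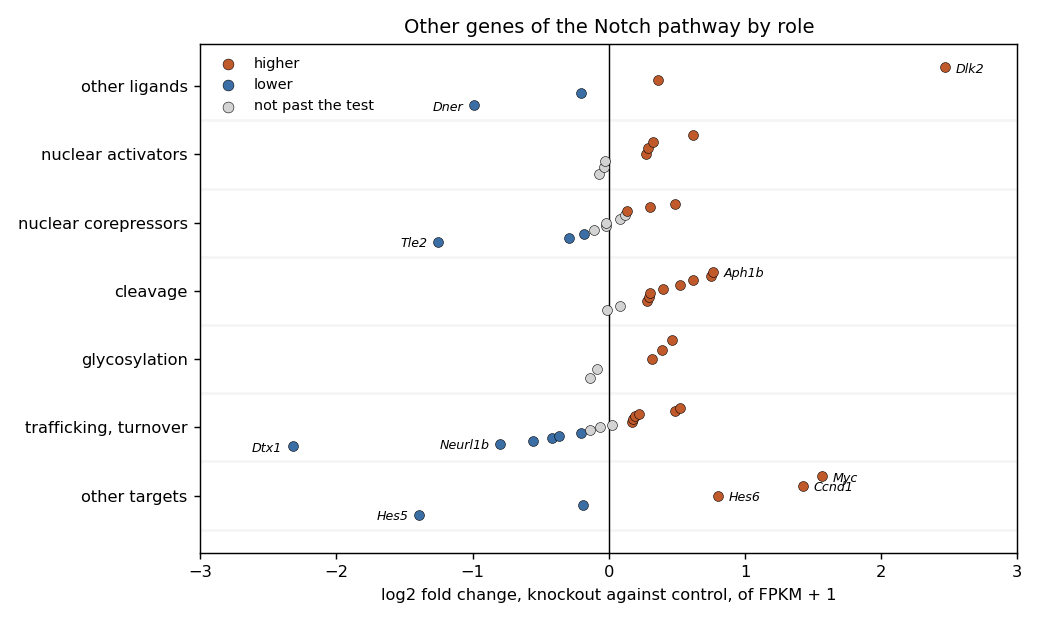
Log2 fold change of knockout against control libraries on the FPKM + 1 scale (horizontal axis) for the 57 tested genes of the pathway list, 1 point a gene, by role and coloured by the call. Cleavage genes lie to the right of 0 or near it, while corepressor, turnover and other target genes lie on both sides.

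Over the 6 libraries, the genes averaging 10 FPKM or more whose centred log2(FPKM + 1) profile lay closest to that of Hey2 were Akap2, Lgmn and Gm20459 (Euclidean distance 0.174, 0.185 and 0.197). They rose from 25.1 to 70.1, from 31.3 to 85.2 and from 26.8 to 71.1 FPKM. Gm20459 shares 84.4% of the Akap2 exon bases on the same strand, so their reads may not be separable. Closest to Notch2 were Ckap2, Hbs1l and 9430020K01Rik (distance 0.0523, 0.0525 and 0.0706), with 32.3, 22.9 and 31.3 FPKM in control libraries against 23.1, 16.1 and 22.9 FPKM in knockout libraries.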

How the data were processed

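RNA of 6 whole-testis libraries, 3 control and 3 labelled knockout, was analysed from 1 deposited table. Per the labels' protocols, an RNeasy kit was used on frozen testes and STAR for alignment. GRCm38 as the build and DESeq2 1.22.2 as a tool of the authors come from the submitters' processing notes. How reads were counted, strand setting included, is not stated in the labels or headers. Per the file headers, the authors deposited FPKM per library, the log2 of group means plus 0.01, log2 fold changes, p-values with FDR, and −log10 p-values. Column names gave each library its group, with mutant read as knockout.

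Because FPKM are not counts, limma 3.58.1 (R 4.3.3) with an intensity trend was run on log2(FPKM + 1), two-sided, after dropping genes averaging under 1 FPKM, with Benjamini-Hochberg adjustment over all 13778 genes at 0.05. A fold change is the ratio of mean FPKM, and a log2 fold change comes from the model and understates low genes. Whole reads were recovered from the FPKM steps for 14998 of 14998 genes (tolerance 0.003 reads), with the scale taken from exon lengths in GENCODE M21. The value of 1 read matched the merged exon length for 48.0% of the genes with a length there, and 135 genes were multiplied by a whole factor. For the rest the reads are the smallest whole solution, with no match to that length. The script was tested on simulated data. No pair of replicates agreed within sampling noise (mean chi-square per gene 1.68 to 4.94).

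The members, gene lists and tests were chosen with earlier results of these data known. Genes named are the 10 members, up to 3 genes with the smallest p in each role of the pathway list, Dll1, Dll3, Dll4, Rbpj and Nrarp, the 3 genes most like the largest rise and fall among members called, and the 2 most abundant markers of each list. Lats1, Lats2 and genes said to be so were added. Alternatives were pseudocounts of 0.1 and 0.01, no filter or a mean of at least 2 FPKM, median-ratio scaling, limma-voom on recovered reads, a replicate block and leaving out each library.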

Additional observations from a re-analysis of the deposited data

How the results depend on the processing

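Over 13 alternatives for each of the 10 genes, 117 of 130 values kept their direction and their side of the threshold, 8 lost the call, 4 gained it and 1 reversed. Jag1, Jag2, Notch2, Notch4, Hey2 and Heyl kept their calls in every alternative, with log2 fold changes of 1.38 to 1.66 for Hey2 and -0.50 to -0.45 for Notch2. The losses were those of Notch1 and Hes1 without single libraries, given above. The reversal was Notch3, at 0.032 without knockout replicate 1 (adjusted p = 0.697; -0.14 to 0.032 over the libraries left out), the cause was not tested, and it passed in no setting. Leaving out 1 library gave 4 to 6 of the 10 genes higher and 2 to 3 lower, 26 to 29 pathway genes higher and 12 to 14 lower, and 8639 to 9584 genes called in all, against 9492. Libraries with the same number did not deviate together (correlations of deviations from the group means -0.007, -0.016 and 0.097, and libraries did not all correlate best with their own number), so the numbers were not taken as pairs. With a replicate block 9359 genes were called, 6 of the 10 genes were higher and 3 lower, Hey1 being added (adjusted p = 0.0168). Depth limits Hes5 and Dlk2, with 2 to 43 and 6 to 215 reads a library, more than the 10 genes.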
